A study of Rattus norvegicus with 4 samples.

Results

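Endothelial cells hold leukocytes on the vessel wall with a small set of surface and stored proteins. Of 6 genes for such proteins, taken by symbol from the deposited matrices (Selp, Sele, Vcam1, Icam1, Vwf and Pecam1), 5 were found among the 22118 symbols listed, and Pecam1 was not analysed here. The study profiled Lewis rat liver by droplet single-cell RNA sequencing in 4 libraries, 1 per group. The naive library came from control liver that was neither stored nor perfused, and CS from liver held in cold storage for 4 h at 4 °C. NEVLP2 is read as liver perfused for 4 h at 37 °C without added cytokines, and NEVLPcty as liver perfused likewise with IL-10 and TGF-β, immunoregulatory cytokines. That reading rests on the series description, and the digit in NEVLP2 is not explained there.

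Lewis red cells freed of leukocytes circulated in William's E medium, to which, by the labels, albumin, insulin, hydrocortisone (a glucocorticoid), heparin, papaverine, antibiotics, glutamine and pyruvate had been added. The number of rats behind a library, their age, and how cells were freed from the tissue are not given in the sources used here. With 1 library per group no difference could be tested, and liver, library and treatment cannot be told apart. All intervals are 95% and cover counting error only.

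Leukocytes leave the blood in steps. Selectins on activated endothelium (P-selectin from Selp, E-selectin from Sele) catch and roll them, and the immunoglobulin-family ligands VCAM-1 and ICAM-1 then hold them through integrins. P-selectin is stored with von Willebrand factor (Vwf), the large protein that tethers platelets, in Weibel-Palade bodies. Liver sinusoids differ from other vessels: their endothelium is fenestrated and is known to retain leukocytes with little need of selectins.

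The stretch of DNA before a gene's start carries control sites, and transcription of Vcam1 and Icam1 in endothelium is known to respond to inflammatory cytokines through NF-kB. The RefSeq table of GRCr8 gave an upstream window for 3 members (Sele, Vcam1 and Icam1). Whether the listed starts, that of Sele included, are where transcription begins was not tested. Windows of 250 bases before the start were searched on both strands for GGNNNTTCC and for the longer NF-kB consensus, which overlaps it. Of 33469 rat promoters of that length, 15.4% held GGNNNTTCC and 3.54% the NF-kB consensus. Shown 5′ to 3′ are the windows that held a match, those of Vcam1 (chr2:206742834-206743033, minus strand) and Icam1 (chr8:27829595-27829794, plus strand). They run from 250 to 51 bases before the start, and capitals mark matches.
Vcam1: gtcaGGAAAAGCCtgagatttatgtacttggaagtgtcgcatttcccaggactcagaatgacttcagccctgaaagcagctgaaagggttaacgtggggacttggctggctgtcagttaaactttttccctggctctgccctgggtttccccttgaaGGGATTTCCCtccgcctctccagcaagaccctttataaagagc
Icam1: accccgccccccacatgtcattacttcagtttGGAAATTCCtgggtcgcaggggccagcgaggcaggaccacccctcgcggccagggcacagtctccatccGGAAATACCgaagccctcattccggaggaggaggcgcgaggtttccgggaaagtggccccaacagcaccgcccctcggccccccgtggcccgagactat
In Vcam1 the NF-kB consensus lay 93 to 84 bases before the start, over a GGNNNTTCC match at 93 to 85, and another GGNNNTTCC match on the opposite strand lay at 246 to 238. In Icam1 the GGNNNTTCC matches lay at 218 to 210 and at 149 to 141, and the longer consensus was not found. In the Sele window neither GGNNNTTCC nor the longer consensus was found, and that window is not shown. A match describes letters in a window, and its absence says only that the letters are not there.

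Classes of cells came from clusters built without the members and named from marker lists that left the members out. The ending -like marks a name that rests on transcripts. Endothelial-like barcodes were 71 in naive and 4804 in CS, with 2681 in NEVLP2 and 6491 in NEVLPcty, at median depths of 667, 5142.5, 5133 and 5422 UMIs (unique molecular identifiers, the counted transcripts). Different clusters held most of them: cluster 0 in CS, cluster 5 in NEVLP2, and clusters 1 and 6 in NEVLPcty. The summed level of 24 endothelial markers was 35797, 33210, 16132 and 23996 counts-per-million (CPM, a gene's UMIs scaled to the UMI total of the class) in naive, CS, NEVLP2 and NEVLPcty. The part of these differences in the members' values was not tested. Re-clustering split the class into sinusoidal barcodes (67, 4485, 2590 and 6314) and vascular ones (4, 151, 91 and 177), in the order naive, CS, NEVLP2, NEVLPcty. A sub-cluster of 168 CS barcodes stayed unnamed and is in neither, with Vwf at 189 CPM (203 UMIs, in 21.4% of its barcodes). The 4 naive barcodes go against the vascular name, with 0 UMIs of 12 vascular markers and 31 of hepatocyte markers, and are not read as vascular cells. The 8 sinusoidal markers summed to 17167 CPM in sinusoidal barcodes of CS, 7883 in those of NEVLP2 and 10850 in those of NEVLPcty. In vascular barcodes the sums were 1565, 569 and 936 CPM. Single sinusoidal markers differed in this: Lyve1 was 4651, 4961 and 4957 CPM in sinusoidal barcodes of CS, NEVLP2 and NEVLPcty, whereas Fcgr2b was 5899, 1545 and 3082 CPM and Dnase1l3 was 3852, 620 and 1398 CPM. The part of these marker levels in the members' sinusoidal values was not tested. Any pair of libraries shared 7 to 32 of the barcode sequences that passed the filters.

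The members' transcripts sat in different cells. In CS, NEVLP2 and NEVLPcty, vascular barcodes held 73.0, 81.7 and 84.1% of all Selp UMIs, although they made up 3.14, 3.39 and 2.73% of endothelial-like barcodes. They likewise held 87.5, 70.0 and 85.0% of Sele UMIs and 86.3, 89.2 and 83.2% of Vwf UMIs. Vcam1 and Icam1 had their largest share in sinusoidal barcodes, with 51.8, 66.1 and 69.1% of Vcam1 UMIs and 61.2, 65.8 and 78.1% of Icam1 UMIs. In naive liver, with its 71 endothelial-like barcodes, 71.1% of the 128 Selp UMIs lay in monocyte or macrophage-like barcodes and 63.6% of the 33 Vwf UMIs in T-like ones.

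**Figure D1:**
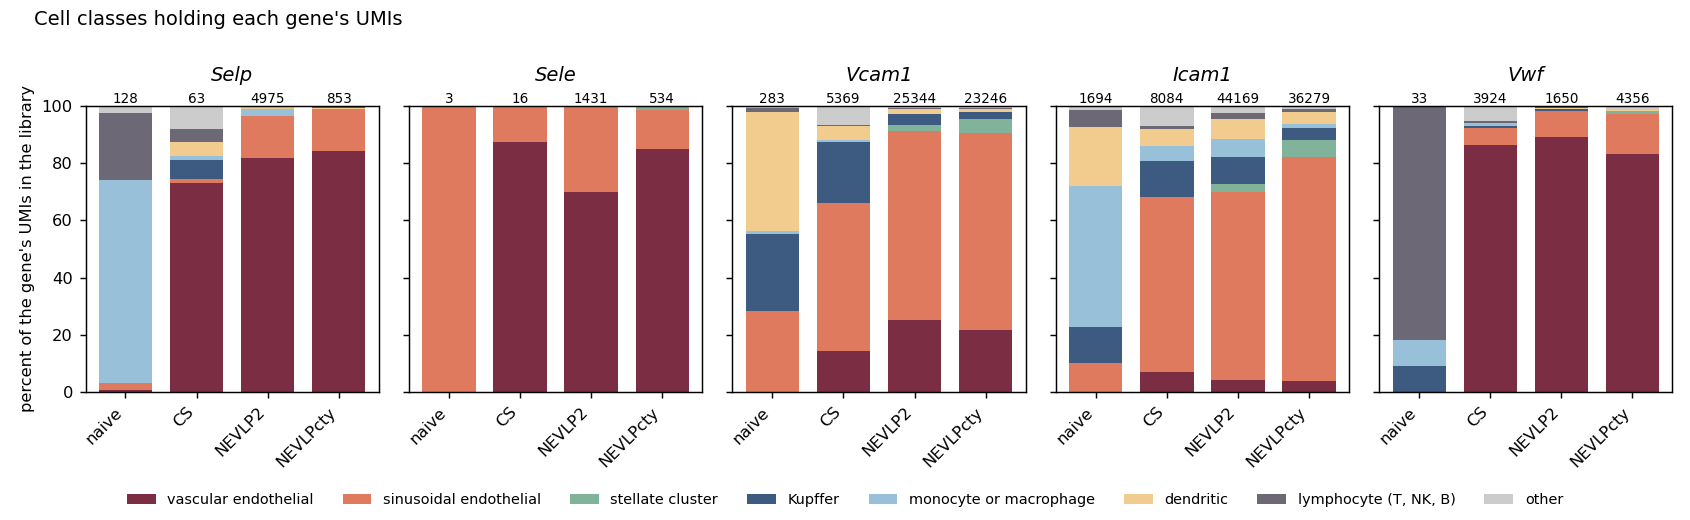
Percent of each gene's UMIs held by each cell class (stacked bars) in each library, with the gene's UMI total above the bar. Vascular barcodes fill most of the Selp, Sele and Vwf bars of CS, NEVLP2 and NEVLPcty, and sinusoidal barcodes most of the Vcam1 and Icam1 bars.

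Selp, which encodes P-selectin, was the member with the largest ratio between NEVLP2 and NEVLPcty over the endothelial-like class. Its level was 17.5 CPM in naive (4 UMIs) and 1.99 in CS, with 346 in NEVLP2 and 24.2 in NEVLPcty. NEVLP2 stood above the other libraries and CS below them. The NEVLP2 level was 14.3-fold that of NEVLPcty (interval 13.3 to 15.4) and 173-fold that of CS (131 to 236). Such class levels pool vascular and sinusoidal barcodes in a mix that differs between libraries. Vascular barcodes held 1097168 of 24096114 endothelial-like UMIs in CS, 919662 of 13865744 in NEVLP2 and 1408254 of 34945512 in NEVLPcty. The part of this mix in the members' class ratios was not tested. In vascular barcodes Selp was 41.9 CPM in CS, where 1 barcode held 67.4% of its UMIs, 4419 in NEVLP2 and 509 in NEVLPcty. The ratios there were 8.68 (8.01 to 9.41) against NEVLPcty and 105 (78.9 to 144) against CS.

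Selp was also seen in more vascular barcodes of NEVLP2. At a common depth of 1000 UMIs per barcode, 2% of vascular barcodes in CS (0.414 to 5.73), with 59.3% in NEVLP2 (48.5 to 69.5) and 17.0% in NEVLPcty (11.8 to 23.4) had a Selp UMI. Without thinning the shares were 5.96, 75.8 and 32.8%, at median depths of 6748, 9995 and 7747 UMIs. In hepatocyte-like barcodes, which should lack the gene, the unthinned shares were 0.0864, 0.568 and 0.127%, at median depths of 1410, 1403 and 1797.5 UMIs.

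In sinusoidal barcodes Selp was scarce, with 1 UMI in 4485 barcodes of CS, 727 in 2590 of NEVLP2 and 127 in 6314 of NEVLPcty. The levels were 0.0456, 56.2 and 3.79 CPM, and the ratio of NEVLP2 to NEVLPcty was 14.8 (12.3 to 18.1). Against the single CS UMI the ratio was 1231 (220 to 48691). Few barcodes carried these counts, since 1 held 15.1% of them in NEVLP2 and 1 held 37.8% in NEVLPcty. When sinusoidal barcodes with any Vwf UMI were left out, a choice made after seeing the data, Selp was 29.6 CPM in NEVLP2 (375 UMIs) and 1.04 CPM in NEVLPcty (34 UMIs). The perfused libraries mostly filled different sinusoidal sub-clusters, and 715 of the 727 NEVLP2 Selp UMIs lay in sub-cluster 2 (1935 NEVLP2 and 70 NEVLPcty barcodes), where NEVLPcty had 0. In sub-cluster 8 (174 NEVLP2 and 425 NEVLPcty barcodes) Selp had 1 UMI in NEVLP2 and 12 in NEVLPcty, 4.68-fold lower in NEVLP2 with an interval that includes 1 (0.693 to 200). In that sub-cluster Sele was 54.7 against 1.04 CPM (52.6-fold, 13.7 to 449) and Vcam1 2576 against 1032 CPM (2.50-fold, 2.34 to 2.66). Icam1 was 3028 against 1194 CPM there (2.53-fold, 2.39 to 2.69), where 2.74% of all genes passed as higher. In sub-cluster 2 Vcam1 was 1.86-fold and Icam1 1.94-fold higher in NEVLP2, short of 2-fold, and Vwf was 2.75-fold lower. In sub-cluster 9 (239 NEVLP2 and 163 NEVLPcty barcodes) Icam1 was 1.81-fold, Vcam1 2.55-fold and Vwf 12.7-fold higher (22 Vwf UMIs against 1). In sub-cluster 0 (22 NEVLP2 and 2621 NEVLPcty barcodes) Vcam1 was 2.40-fold (1.92 to 2.96) and Icam1 2.29-fold (1.98 to 2.64) higher. In sub-cluster 5 (167 NEVLP2 and 755 NEVLPcty barcodes, median 1402 UMIs in all) they were 3.54-fold (2.66 to 4.68) and 2.47-fold (2.07 to 2.95) higher.

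Sele encodes E-selectin, which endothelium makes on cytokine stimulation. Its endothelial-like level was 13.1 CPM in naive (3 UMIs, all in 1 barcode), 0.664 in CS (16 UMIs), with 103 in NEVLP2 and 15.1 in NEVLPcty. NEVLP2 was again the highest and CS the lowest. The NEVLP2 level was 6.82-fold that of NEVLPcty (6.16 to 7.55) and 155-fold that of CS (94.8 to 271). In vascular barcodes Sele was 12.8 CPM in CS, with 1088 in NEVLP2 and 322 in NEVLPcty, a ratio of 3.38 (3.02 to 3.78) between the perfused libraries. In sinusoidal barcodes it was 0.0912, 32.6 and 2.15 CPM, and that ratio was 15.2 (11.8 to 19.8). The intervals of these ratios did not overlap, and the sinusoidal Sele counts were 422 in NEVLP2 and 72 in NEVLPcty.

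The selectins shared vascular barcodes. In NEVLP2, 39 of the 69 vascular barcodes with a Selp UMI (56.5%) also had Sele, against 7 of 22 without Selp (31.8%). In NEVLPcty, 27 of 58 with Selp (46.6%) and 16 of 119 without (13.4%) had Sele. Deeper barcodes show more genes of any kind, and the part of depth in these shares was not tested.

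Vcam1 encodes the endothelial ligand of integrin α4β1. Its endothelial-like level was 350 CPM in naive, where 1 barcode held 41.2% of 80 UMIs, and 159 in CS, with 1667 in NEVLP2 and 602 in NEVLPcty. In sinusoidal sub-cluster 4 the order of naive and CS was the other way, at 60.8 CPM (8 UMIs in 20 barcodes) and 102 CPM. In sub-cluster 5, 29 naive barcodes held Vcam1 at 1096 CPM (18 UMIs). NEVLP2 was 2.77-fold above NEVLPcty (2.72 to 2.82) and 10.5-fold above CS (10.1 to 10.9). In sinusoidal barcodes the levels were 127, 1293 and 479 CPM in CS, NEVLP2 and NEVLPcty, a ratio of 2.70 (2.64 to 2.76) between the perfused libraries. Vascular barcodes held Vcam1 at higher levels, 700, 6932 and 3548 CPM, and there that ratio was 1.95 (1.88 to 2.03).

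Vcam1 was found in a large share of sinusoidal barcodes. At 1000 UMIs the share was 9.91% in CS (9.01 to 10.9), with 44.8% in NEVLP2 (42.7 to 46.8) and 23.0% in NEVLPcty (22.0 to 24.1). The order was the same without thinning, at 28.9, 66.6 and 46.0%, at median depths of 5016, 5068 and 5364.5 UMIs. In hepatocyte-like barcodes the unthinned shares were 0.778, 2.90 and 1.58%, at lower median depths of 1410, 1403 and 1797.5 UMIs. Unthinned shares of the 2 classes are therefore not at like depth.

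Icam1 encodes the ligand of the leukocyte β2 integrins, and its libraries fell in the order of those of Vcam1. Its endothelial-like level was 761 CPM in naive and 245 in CS, with 2229 in NEVLP2 and 852 in NEVLPcty. NEVLP2 was 2.62-fold above NEVLPcty (2.58 to 2.66) and 9.08-fold above CS (8.83 to 9.34), and naive and NEVLPcty lay between. The naive level averages unlike barcodes. In sinusoidal sub-cluster 4, 20 naive barcodes held Icam1 at 76.0 CPM (10 UMIs), beside 77.5 in CS. In sub-cluster 5, shallow and otherwise mostly from perfused liver, 29 naive barcodes held it at 3896 CPM (64 UMIs). Sinusoidal levels were 226, 2244 and 845 CPM in CS, NEVLP2 and NEVLPcty. Vascular levels were 520, 2016 and 1010 CPM, above the sinusoidal level in CS and NEVLPcty and below it in NEVLP2. They average unlike sub-clusters, described below. Sub-clusters 14 (CS) and 12 (NEVLP2 and NEVLPcty) lay above the sinusoidal level of their library, at 831, 2988 and 1972 CPM. Sub-clusters 15 (CS) and 13 (NEVLP2 and NEVLPcty) lay below it, at 137, 583 and 259 CPM. At 1000 UMIs, 17.4% of sinusoidal barcodes in CS (16.3 to 18.6), with 77.5% in NEVLP2 (75.8 to 79.2) and 49.4% in NEVLPcty (48.1 to 50.7) had an Icam1 UMI. Without thinning the shares were 42.5, 93.1 and 83.6%, whereas 3.21% of NEVLP2 and 0.364% of NEVLPcty sinusoidal barcodes had a Selp UMI.

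Hepatocyte-like barcodes held Icam1 at 9.26, 91.1 and 30.5 CPM in CS, NEVLP2 and NEVLPcty. The unthinned shares were 1.43, 13.4 and 6.91%, at depths below those of sinusoidal barcodes. This Icam1 level was highest in the same library as the endothelial level, and its part in the endothelial values was not tested. In sinusoidal barcodes Vcam1 and Icam1 were found together: in NEVLP2, 97.2% of the 1725 barcodes with Vcam1 had Icam1, against 84.7% of the 865 without. In NEVLPcty these shares were 92.3% of 2902 and 76.2% of 3412, and in CS 50.5% of 1294 and 39.3% of 3191. These barcodes were not thinned and differ in depth. In NEVLP2, Vcam1 and Icam1 were seen in 16.8 and 58.1% of sub-cluster 5 (median 1402 UMIs). In sub-cluster 2 (median 5741 UMIs) they were seen in 73.4 and 99.4%. The part of depth in the shared detection was not tested.

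Vwf did not follow the other members. Its endothelial-like level was 0 CPM in naive (0 UMIs in 71 barcodes, with an upper Poisson limit of 16.1) and 158 in CS, with 117 in NEVLP2 and 121 in NEVLPcty. NEVLP2 lay 1.04-fold below NEVLPcty (0.980 to 1.10) and 1.36-fold below CS (1.28 to 1.44), but scaling by the median ratio over genes turned these directions, to log2 differences of 0.26 and 0.34. These class ratios pool sinusoidal and vascular barcodes. In sinusoidal barcodes Vwf was 10.4 CPM in CS, with 11.4 in NEVLP2 and 18.3 in NEVLPcty. Sinusoidal NEVLP2 was 1.61-fold below NEVLPcty (1.34 to 1.94) and 1.10-fold above CS (0.885 to 1.36). In vascular barcodes Vwf was 3088 CPM in CS, with 1600 in NEVLP2 and 2572 in NEVLPcty. NEVLP2 was there 1.61-fold below NEVLPcty (1.51 to 1.71) and 1.93-fold below CS (1.82 to 2.05), beside median log2 differences over all genes of -0.29 and -0.79 in the same barcodes. At 1000 UMIs a Vwf UMI was seen in 85.3, 67.0 and 83.5% of vascular barcodes of CS, NEVLP2 and NEVLPcty. Among these 3 libraries the vascular level of Selp was highest, and that of Vwf lowest, in NEVLP2. In the same barcodes of CS, NEVLP2 and NEVLPcty, 12 vascular markers summed to 5157, 1710 and 3002 CPM. The 24 endothelial markers summed to 13368, 5340 and 9025 CPM. These sums were also lowest in NEVLP2, and their part in the Vwf values was not tested.

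**Figure D2:**
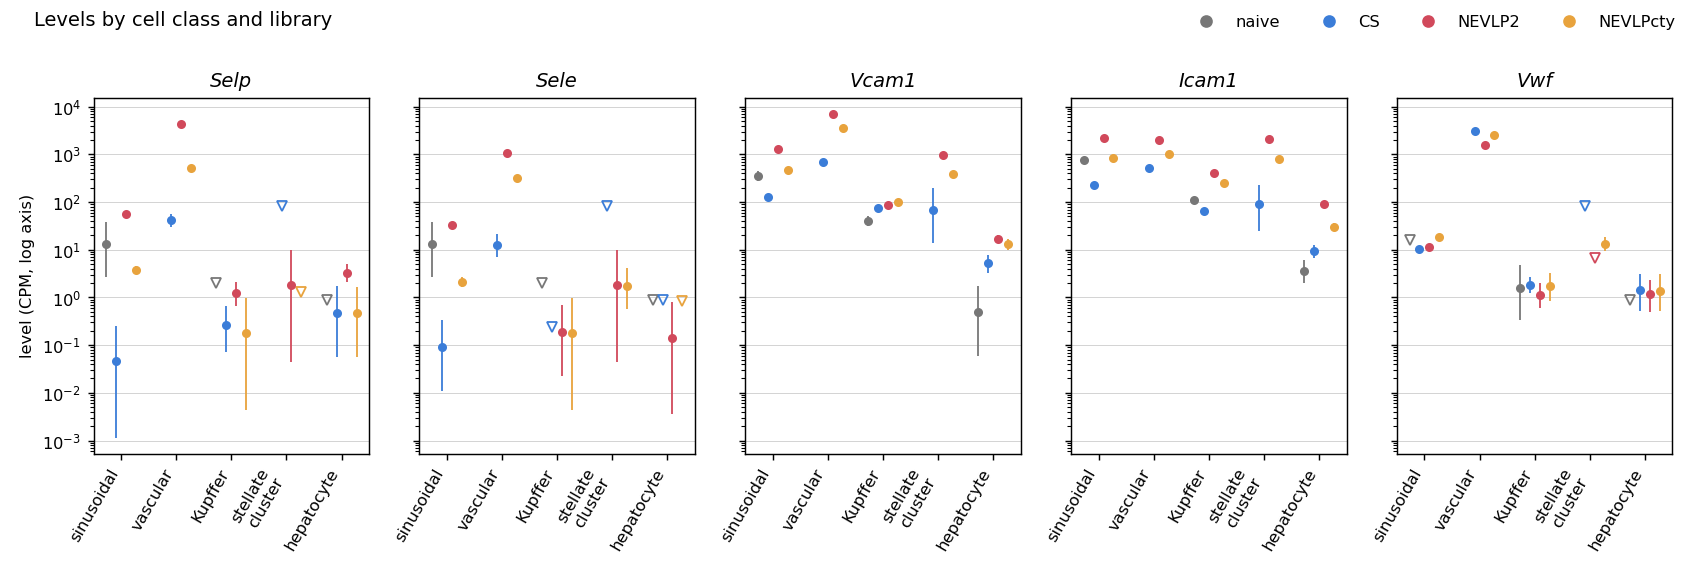
Level of each gene in CPM (log axis) by cell class, 1 point per library with its 95% Poisson interval; open triangles mark the upper bound where no UMI was counted, and groups under 14 barcodes are not drawn. NEVLP2 lies above CS and NEVLPcty in sinusoidal and vascular barcodes for Selp, Sele, Vcam1 and Icam1, and below them in vascular barcodes for Vwf.

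For a count over members, a gene passed when its levels differed at least 2-fold, the interval of the ratio excluded 1 and the libraries compared held at least 10 of its UMIs. In endothelial-like barcodes 4 of 5 members (Selp, Sele, Vcam1 and Icam1) passed as higher in NEVLP2 than in NEVLPcty, where 5.25% of 12413 genes did and 12.1% passed as lower. The same 4 passed as higher in NEVLP2 than in CS, where 10.5% of 12655 genes did and 43.3% passed as lower. No member passed as lower in either. Both comparisons use the NEVLP2 library and are not independent. Over all genes the median log2 difference was -0.32 against NEVLPcty and -0.79 against CS. With median-ratio scaling, 1071 genes were higher and 646 lower in the first comparison (652 and 1500 without it), and 3009 and 3434 in the second (1329 and 5477 without it). The count of members higher was 4 in each under that scaling too.

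Sinusoidal barcodes alone gave 4 of 5 members higher in each comparison, on backgrounds of 4.85 and 10.6% of genes higher and of 12 and 43% lower. In vascular barcodes Selp and Sele passed against NEVLPcty on a background of 4.11% of genes higher and 12.5% lower, while Vcam1, at 1.95-fold, and Icam1, at 1.996-fold (1.86 to 2.14), did not. Against CS these 4 passed in vascular barcodes, on a background of 11% higher and 41.1% lower. NEVLPcty also exceeded CS in endothelial-like barcodes, by 12.1-fold for Selp, 22.7-fold for Sele, 3.80-fold for Vcam1 and 3.47-fold for Icam1, on a background of 9.88% higher and 35.1% lower. The same 4 members were past 2-fold in sinusoidal barcodes (background 10.3%), and Selp, Sele and Vcam1 in vascular ones (background 9.65%), where Icam1 was 1.94-fold higher.

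**Figure D3:**
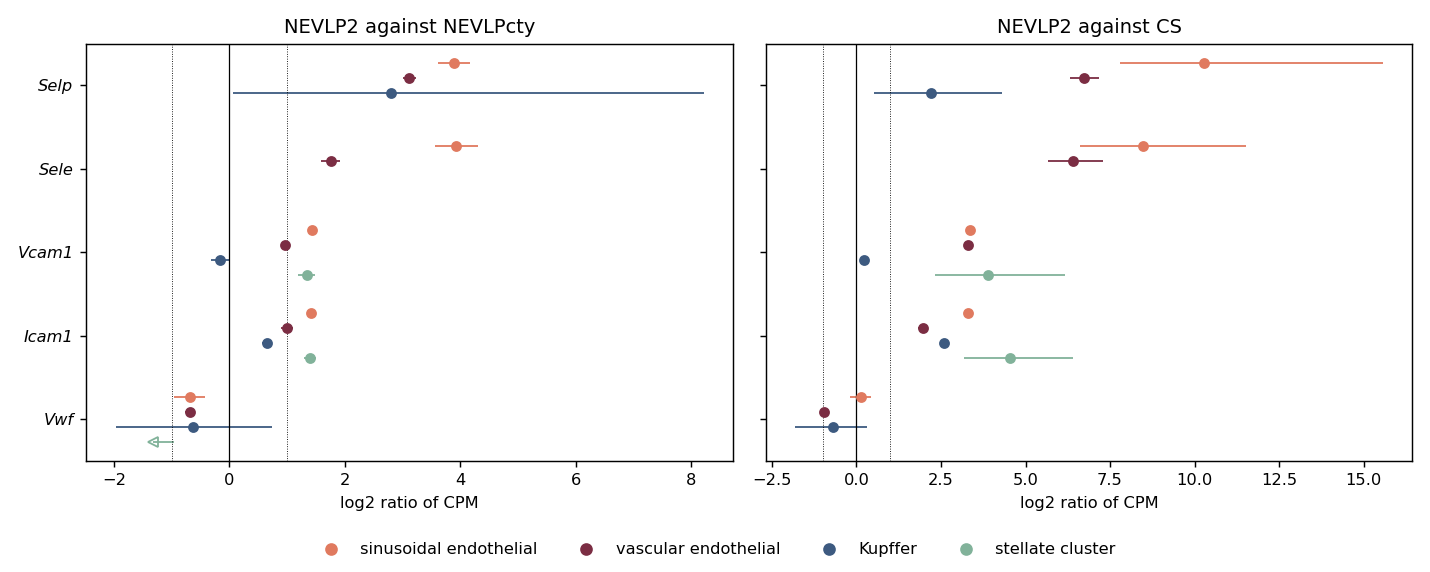
Log2 ratio of CPM for NEVLP2 against NEVLPcty and against CS, by gene and cell class, with 95% intervals for counting error. Dotted lines mark 2-fold, and the open symbol is a ratio with 0 UMIs set to a floor of 3. In endothelial barcodes the ratios of Selp and Sele exceed those of Vcam1 and Icam1, and Vwf lies near or below 0.

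Vascular barcodes fell into sub-clusters with different vessel genes. Sub-clusters 12 (50 NEVLP2 and 75 NEVLPcty barcodes, with 15 from CS and 4 from naive) and 14 (75 CS barcodes) held Rspo3, a Wnt enhancer of central vein endothelium. It was 236 CPM in NEVLP2 and 366 in NEVLPcty in sub-cluster 12, and 1592 in CS in sub-cluster 14. In sub-clusters 13 (39 NEVLP2 and 100 NEVLPcty barcodes) and 15 (61 CS barcodes) Rspo3 had at most 1 UMI in each of these libraries. Gja5, a connexin of arterial endothelium, was 319 CPM in CS in sub-cluster 15 and 173 in NEVLPcty in sub-cluster 13, but 21.8 in NEVLP2 in sub-cluster 13 (8 UMIs). The libraries compared in sub-cluster 13 thus differed in a gene that marks it, and the part of this in the members' values was not tested. Selp differed between the perfused libraries in each, from 4814 against 625 CPM in sub-cluster 12 (7.70-fold, 6.91 to 8.59) to 3948 against 424 in sub-cluster 13 (9.32-fold, 8.26 to 10.5). Vcam1 was 4114 CPM in NEVLP2 and 3835 in NEVLPcty in sub-cluster 12, a ratio of 1.07 (1.01 to 1.14). In sub-cluster 13 Vcam1 was 11261 and 3335 CPM, a ratio of 3.38 (3.21 to 3.55).

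Sele also had the larger ratio in sub-cluster 13, at 1797 against 297 CPM (6.05-fold, 5.20 to 7.06), and 630 against 360 in sub-cluster 12 (1.75-fold, 1.47 to 2.08). Icam1 was lower in sub-clusters 15 and 13 than in sub-clusters 14 and 12. It was 831 CPM in sub-cluster 14 and 137 in sub-cluster 15 of CS, 2988 and 583 in sub-clusters 12 and 13 of NEVLP2, and 1972 and 259 in those of NEVLPcty. Vwf was 1467 CPM in NEVLP2 against 2588 in NEVLPcty in sub-cluster 12, and 1761 against 2550 in sub-cluster 13. In sub-cluster 13, 4 of 5 members passed as higher in NEVLP2 (background 3.39%), and in sub-cluster 12 Selp alone did (background 5.84%). In NEVLP2 1 barcode held 7.44% of the vascular Vcam1 UMIs, and 1 held 11.3% of the Sele UMIs.

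**Figure D4:**
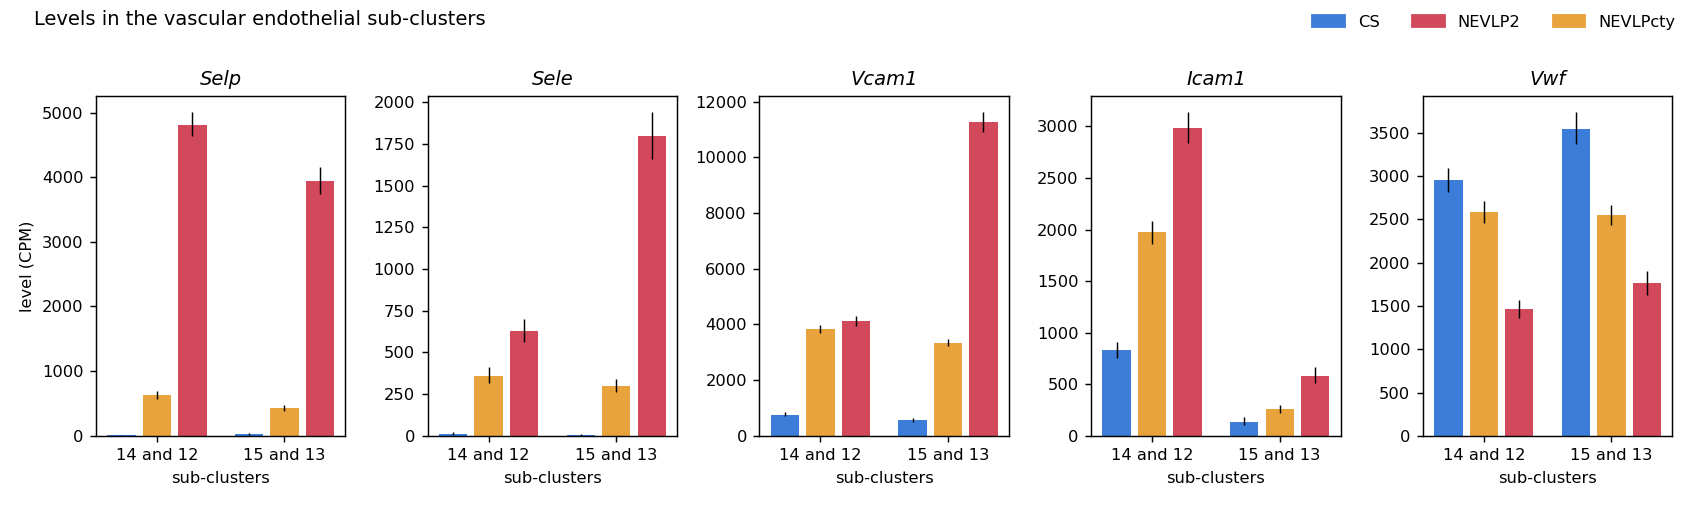
Level in CPM (bars, with 95% Poisson intervals) of each gene in vascular sub-clusters 14 (CS) and 12 (perfused libraries), which held Rspo3, and in 15 (CS) and 13 (perfused libraries). Vcam1 in NEVLP2 reaches 11261 CPM in sub-cluster 13 and 4114 in sub-cluster 12, whereas Icam1 is lower in 13 than in 12 in each perfused library.

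Platelets also carry P-selectin and Vwf, so their markers were read in the same vascular barcodes. The 6 platelet markers summed to 15 UMIs in CS, with 1 in NEVLP2 and 0 in NEVLPcty, with Ppbp, Gp1bb, Gp9 and Treml1 at 0 in each. Ppbp and Gp1bb were at 0 in every class where these markers were summed, so their zeros say little about platelets.

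Kupffer cells are the resident macrophages of the sinusoid. Kupffer-like barcodes numbered 164 in naive and 1033 in CS, with 706 in NEVLP2 and 462 in NEVLPcty, and 10 Kupffer markers summed to between 29464 and 60174 CPM. Cluster 10 held most of those of CS and cluster 9 most of the perfused ones. Icam1 was 113 CPM in naive and 66.4 in CS, with 401 in NEVLP2 and 255 in NEVLPcty, so the perfused libraries stood above the others. NEVLP2 was 6.04-fold above CS (5.63 to 6.47) and 1.57-fold above NEVLPcty (1.48 to 1.67). At 1000 UMIs the share of barcodes with Icam1 was 5.10% in CS (3.83 to 6.64), with 32.3% in NEVLP2 (28.8 to 36.0) and 16.4% in NEVLPcty (13 to 20.2). Unthinned it was 47.2, 85.6 and 66.9%, at median depths of 15575, 16143 and 13089 UMIs. In B-like barcodes, at 4438, 4761 and 5061 UMIs, the unthinned shares were 5.56, 34.5 and 36.7%.

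Vcam1 in Kupffer-like barcodes was 41.0 CPM in naive and 75.6 in CS, with 88.1 in NEVLP2 and 98.8 in NEVLPcty. NEVLP2 lay 1.12-fold below NEVLPcty (1.01 to 1.25), a direction that turned under 4 of 13 alternatives, and 1.17-fold above CS (1.07 to 1.27). Endothelial markers summed to 1014, 626 and 979 CPM in the Kupffer-like barcodes of CS, NEVLP2 and NEVLPcty, and their part in the Vcam1 values was not tested. Selp, Sele and Vwf were at 1.86 CPM or less there in each library. Against NEVLPcty 1 of 4 members measured passed as higher, Selp with 13 UMIs against 1 (background 5.41% higher and 8.91% lower), and it did not pass under 5 alternatives. Against CS 2 passed, Icam1 and Selp with 13 UMIs against 4 (background 8.84% higher and 32.7% lower). These Selp ratios were 6.98 (1.05 to 297) and 4.66 (1.44 to 19.6). NEVLPcty exceeded CS past 2-fold for Icam1 alone (3.84-fold, background 7.46%). With median-ratio scaling, 1927 of all genes were higher and 2081 lower than in CS (997 and 3689 without it), and the median log2 differences over all genes were -0.09 against NEVLPcty and -0.55 against CS.

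Stellate cells are the pericytes of the sinusoid and store retinoids. Cluster 18 was led by stellate markers, with 0, 14, 104 and 534 barcodes in naive, CS, NEVLP2 and NEVLPcty, but the perfused libraries went against that name. Endothelial markers summed there to 16529 CPM in NEVLP2 and 25418 in NEVLPcty, and stellate markers to 4647 and 2605 CPM. In the 14 CS barcodes the sums were 3955 CPM for endothelial and 23687 for stellate markers. It is therefore called the stellate-marker cluster, and its perfused values are not given as levels of stellate cells. Vcam1 was 986 CPM there in NEVLP2 and 389 in NEVLPcty, a ratio of 2.53 (2.28 to 2.81). Icam1 was 2075 and 788 CPM, a ratio of 2.63 (2.45 to 2.83).

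In the 14 CS barcodes Vcam1 had 3 UMIs and Icam1 4, and the ratios of NEVLP2 to CS were 14.7 (5.01 to 71.5) and 23.2 (9.04 to 85.4). Vwf had 0 UMIs in NEVLP2 and 38 in NEVLPcty, where 1 barcode held 81.6% of them. With the 0 set to a floor of 3 UMIs, Vwf was 2.51-fold lower in NEVLP2, and the counting interval starts at 1.94-fold. Against NEVLPcty 3 of 3 members measured passed, 2 as higher (background 5.22%) and 1 as lower (background 8.37%), and 2 of 2 passed as higher than in CS (background 8.86% higher and 13.8% lower). NEVLPcty likewise exceeded CS for Vcam1 and Icam1 (background 6.51%), over the same 14 CS barcodes. With median-ratio scaling 666 of all genes were higher and 338 lower than in NEVLPcty (466 and 747 without it), and 639 and 619 than in CS (479 and 744 without it). Barcodes chosen by their stellate transcripts instead numbered 6, 5 and 8 in CS, NEVLP2 and NEVLPcty. They held 4, 31 and 13 Icam1 UMIs and 1, 5 and 2 Vcam1 UMIs.

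Genes of the same pathways were read from fixed lists in endothelial-like barcodes. Their counts stand beside the shares of all genes given above, 5.25% higher and 12.1% lower against NEVLPcty and 10.5% higher and 43.3% lower against CS, and beside all-gene medians of -0.32 and -0.79. Small lists with counts near these shares are given as values. Of 12 cytokine-induced chemokines and cytokines, 10 passed as higher in NEVLP2 than in NEVLPcty and 11 as higher than in CS, with 0 lower in either. Their median log2 difference was 2.19 against NEVLPcty and 7.69 against CS. Cxcl10, which recruits T cells, was 229 CPM in CS, with 1947 in NEVLP2 and 236 in NEVLPcty, and 2221 (508 UMIs) in the 71 naive barcodes. Cxcl1, a neutrophil chemokine, was 142, 29483 and 8307 CPM and 10779 in naive, and Ccl2, which recruits monocytes, was 55.0, 21314 and 6822 CPM. Il6 was 15.4 CPM in NEVLP2 and 0.458 in NEVLPcty, a ratio of 33.7 (20.3 to 60).

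Of the cytokine receptor and NF-kB genes, 5 of 23 measured passed as higher and 2 as lower against NEVLPcty, and 14 of 24 as higher and 2 as lower against CS (list medians of the log2 difference 0.57 and 1.95). Irf1, an interferon-induced transcription factor, was 180 CPM in CS, with 559 in NEVLP2 and 109 in NEVLPcty. Nfkb1, an NF-kB subunit, was 103, 1290 and 560 CPM. Nfkbia, the inhibitor that NF-kB itself induces, was 1088, 8533 and 5638 CPM, 7.84-fold higher in NEVLP2 than in CS and 1.51-fold higher than in NEVLPcty.

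Of 16 other adhesion and junction genes measured, 0 passed as higher in either comparison, 2 (Icam2 and Stab1) as lower against NEVLPcty and 4 as lower against CS (medians -0.70 and 0.02). Icam2, a constitutive β2 integrin ligand, was 733 CPM in CS, with 95.3 in NEVLP2 and 220 in NEVLPcty, the reverse of the order of Icam1. Cdh5, the cadherin of endothelial junctions, was 895, 991 and 1298 CPM. Of 8 shear and quiescence genes, 0 passed as higher and 2 as lower against NEVLPcty, and 1 as higher and 4 as lower against CS (medians -0.55 and -0.99). Klf4, induced by laminar flow, was 1981 CPM in CS, with 136 in NEVLP2 and 149 in NEVLPcty, and Nos3, endothelial nitric oxide synthase, was 267, 142 and 390 CPM.

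Of 11 Weibel-Palade body and Vwf processing genes, 2 passed as higher and 2 as lower against NEVLPcty, and 6 as higher and 4 as lower against CS (medians -0.21 and 1.02). Edn1, the endothelin stored in these bodies, was 3.07 CPM in CS, with 29.1 in NEVLP2 and 8.33 in NEVLPcty. Plat, tissue plasminogen activator, was 23.0, 646 and 205 CPM, whereas Exoc3l2 was 305, 5.12 and 47.8 CPM. Of 14 vessel-type genes, 0 passed as higher, 4 as lower against NEVLPcty and 11 as lower against CS (medians -0.51 and -1.56). Of 3 sheddases, proteases that release such proteins from the surface, Mmp9 passed as higher in each comparison (2.41, 54.3 and 4.61 CPM in CS, NEVLP2 and NEVLPcty), with 0 and 2 lower (medians -0.20 and -1.16).

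Leukocyte counter-receptors were also read in these endothelial-like barcodes. Of 11, 4 passed as higher and 1 as lower against NEVLPcty, and 2 as higher and 3 as lower against CS (medians 0.90 and 0.33). Itgal, the integrin chain that binds ICAM-1, was 5.81 CPM in CS, with 7.28 in NEVLP2 and 3.35 in NEVLPcty. The part of leukocyte RNA in these values was not tested. Of the platelet genes, 1 of 4 measured passed as higher and 0 as lower against NEVLPcty, and 1 of 6 as higher and 2 as lower against CS (medians 0.02 and -0.42).

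Likeness of pattern was measured as the Pearson correlation of log2(CPM + 10) over 42 sums of a class in a library, among 11696 genes. It is a description, because sums share libraries and depth. Selp was most like Sele (0.97), Msx1 (0.93) and Edn1 (0.93), and Sele most like Selp, Igfbp5 (0.94) and Msx1 (0.93). Vcam1 was most like Tfpi (0.92), Dusp8 (0.91) and Thbd (0.90). Icam1 was most like Nfkbia (0.91), Ccl2 (0.90) and Spag9 (0.89), and Vwf most like Fbln2, Pnoc and Slit2 (0.98, 0.98 and 0.97). Between members, Vcam1 and Icam1 reached 0.82, and Icam1 and Vwf 0.41.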

How the data were processed

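The deposited files hold whole-number UMI counts per gene and barcode, which the authors made with Cell Ranger (2.1.1 per the submitters' processing notes, 6.0.0 per the file headers). The genome build was not given in the sources used here. Rows that share a symbol were summed. The libraries held 3920, 11200, 10646 and 11763 barcodes (in the order naive, CS, NEVLP2, NEVLPcty) with UMI totals of 25609611, 67431270, 65893218 and 72271060. Kept were barcodes that reached 200 genes and 500 UMIs and held no more than 20% mitochondrial UMIs (3300, 10798, 10186 and 11616).

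Doublets were removed by the highest Scrublet scores, up to 0.8% per 1000 barcodes in each library, since Scrublet's own calls marked 0.182% in naive. This left 3197, 9830, 9318 and 10523 barcodes. Leiden clustering of all libraries, without batch integration (2000 variable genes without the members, 30 components, 15 neighbours, resolution 1), gave 29 clusters. A cluster took the name of the marker list with the highest mean level relative to the highest cluster, if that reached 0.15, at least 3 markers were seen in over 10% of barcodes, and no other list led its top 10 genes.

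Counts were summed per class and library. Exact intervals were Poisson for levels, binomial (Clopper-Pearson) for shares and conditional binomial for ratios. The call rule was run on simulated counts with Poisson error alone, the error these intervals assume. That run cannot speak to variation between barcodes or libraries. Members and lists were chosen with earlier results of these data known. From each list the text could name the 4 genes with most endothelial-like UMIs and up to 6 that passed with at least 30 counts. Alternatives changed clustering, doublet removal, scaling, count minimum, thinning and naming. Clustering used scanpy 1.11.5 with leidenalg 0.10.2 and scikit-learn 1.9.0, intervals scipy 1.17.1, and tables and plots pandas 2.3.3, numpy 2.4.6 and matplotlib 3.10.9 under Python 3.11.15.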

Additional observations from a re-analysis of the deposited data

How the results depend on the processing

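No paired analysis was possible because each group holds 1 library. In endothelial-like barcodes Selp and Sele kept their direction and passed in 16 of 16 alternatives of each comparison. Vcam1 and Icam1 passed in 15 of 16 against NEVLPcty, the exception being vascular barcodes alone, and in 16 of 16 against CS. Vwf passed in 0 and kept its direction in 13 of 16. Of 324 alternative member ratios, 213 lay within the counting interval of the ratio reported, 110 lay outside it and 1, of a member that had passed, reversed. Turns of direction in members that had not passed were not counted as reversals and are among the 213 and 110. In Kupffer-like barcodes Vcam1 kept its direction in 9 of 13 alternatives against NEVLPcty. Vwf there kept its direction in 7 of 11 against NEVLPcty and 8 of 11 against CS. Of 160 alternative counts, 137 stayed within 1.5 times of the value reported, and the other 23 concern Kupffer-like barcodes and the stellate-marker cluster.

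In Kupffer-like barcodes against NEVLPcty, members past 2-fold numbered 0 with each library clustered alone, at resolution 2, with a mitochondrial maximum of 10%, with thinning to 1000 UMIs and with at least 50 counts. They numbered 2 with Scrublet's calls and with no doublet removal. Against CS 1 member passed with thinning, with mean CPM per barcode and with at least 50 counts. Thinning, which leaves fewer counts, gave 645 genes past 2-fold against NEVLPcty and 2486 against CS. In the stellate-marker cluster the count of all genes against NEVLPcty was 185 by transcripts, 452 with no doublet removal and 427 with thinning. Against CS it was 4356 with each library alone, 282 by transcripts, 4869 with Scrublet's calls, 173 with thinning and 716 with at least 50 counts. Members there numbered 4 with each library alone, 1 by transcripts and 5 with Scrublet's calls. The Vwf difference between NEVLP2 and NEVLPcty in that cluster reversed to a log2 value of 0.11 with Scrublet's calls. Apart from the loss of counts by thinning or a higher minimum, the cause was not tested. In Kupffer-like barcodes and the stellate-marker cluster the selectins and Vwf rest on few counts. Among sinusoidal barcodes they rest on few barcodes, which the counting intervals do not cover. Selp, Sele and Vwf were seen in 83, 91 and 42 of 2590 in NEVLP2, and in 23, 38 and 153 of 6314 in NEVLPcty.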

Other observations

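Selp was also counted in monocyte or macrophage-like barcodes. In naive liver 12 of 485 such barcodes held 91 Selp UMIs (15.2 CPM, interval 12.3 to 18.7), and in NEVLP2 17 of 656 held 118 (17.0 CPM, 14.1 to 20.3). CS had 1 Selp UMI in 319 barcodes and NEVLPcty 0 in 167. In naive liver 296 T-like barcodes held 24 Selp and 21 Vwf UMIs. Icam1 in monocyte or macrophage-like barcodes was 140 CPM in naive, 99.0 in CS, 389 in NEVLP2 (374 to 404) and 411 in NEVLPcty (378 to 447), so the intervals of the perfused libraries overlapped. In T-like barcodes Icam1 was 10.8, 11.4, 188 and 49.0 CPM. In conventional dendritic-like barcodes Icam1 was 174, 124, 284 and 148 CPM, and Vcam1 was 67.9, 82.0, 44.9 and 27.4 CPM. These values were chosen after they were seen.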
